A study of Homo sapiens with 6 samples.

Results

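The receptors through which airway epithelium can meet allergen proteases and microbial products were examined in human bronchial epithelial cells (HBECs): the protease-activated receptor genes *F2R*, *F2RL1* and *F2RL2*, the Toll-like receptor genes *TLR1* to *TLR6*, and *MYD88*, the adaptor shared by most Toll-like receptors. These 10 genes were chosen by name from the 61228 genes of the deposited tables, and all 10 are present there. Earlier results of these data were known when they were chosen. HBECs are an immortalized line, used here with the genotype given as wild type. Of the 6 libraries, 3 came from cells exposed for 24 h to cockroach extract (CRE) and 3 from cells exposed to CRE and VAF347, a small-molecule agonist of the aryl hydrocarbon receptor (AhR). The methods of the study give VAF347 as 20 μM, added 1 h before CRE. The comparison asks how an AhR agonist alters the transcripts of allergen-exposed epithelium. Every library received CRE, and libraries without CRE or with VAF347 alone were not analysed here, so a change caused by CRE itself cannot be read from these values. The cells were a single line, and the dose of CRE given to the sequenced cells is not stated in the sources used here.

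Protease-activated receptors are G protein-coupled receptors that are switched on when a protease cuts their outer end and exposes a tethered ligand. Thrombin is the best known activator of the receptor encoded by *F2R* (PAR1), and trypsin-like proteases, including those of allergens, activate the one encoded by *F2RL1* (PAR2). Toll-like receptors recognise conserved microbial molecules and signal through Toll/IL-1 receptor domain adaptors to NF-kappaB and interferon regulatory factors.

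The libraries held 8873160 to 10750283 counts, so that 1 count was worth 0.0930 to 0.113 CPM (counts per 1000000). CRE replicate 3 stood apart from the other CRE libraries on the second principal component, which held 20.2% of the variance, and values without it are given where they alter a result. *CYP1A1*, *CYP1B1* and *AHRR*, targets of activated AhR, rose with VAF347 by 6.20, 3.14 and 2.16 on the log2 scale. All 7 general epithelial markers had a mean of at least 1 TPM (transcripts per 1000000, scaled to transcript length), and their summed TPM was 3739 to 4591 with CRE and 3677 to 3773 with CRE+VAF347. Of 7 airway basal markers 5 reached that level, and *TP63* and *KRT14* were near 0. The secretory markers *SCGB1A1*, *SCGB3A1* and *MUC5AC* were at 0 in all 6 libraries. Of 9 leukocyte markers, 1 (*CD68*) reached a mean of 1 TPM, and *FCGR3A* and *MS4A1* were at 0 in all libraries.

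Levels of different genes were compared in TPM, which is scaled to transcript length. In CRE-treated cells *F2RL1* was the most abundant of the 10 genes, with a mean of 157.5 TPM, above 95.8% of the genes listed with a TPM over 0. It was followed by *MYD88* (22.3 TPM), *TLR3* (20.6 TPM), *F2R* (11.5 TPM), *TLR6* (6.42 TPM), *TLR1* (2.99 TPM) and *TLR5* (2.37 TPM). *TLR2* (0.381 TPM) and *TLR4* (0.232 TPM) lay far lower, and *F2RL2* was listed at 0 in every library. The ranges over the 3 CRE libraries overlapped between *MYD88* and *TLR3*, between *TLR1* and *TLR5*, and between *TLR2* and *TLR4*, so the order within these pairs was not beyond the spread between libraries. No other neighbours in this order overlapped.

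**Figure D1:**
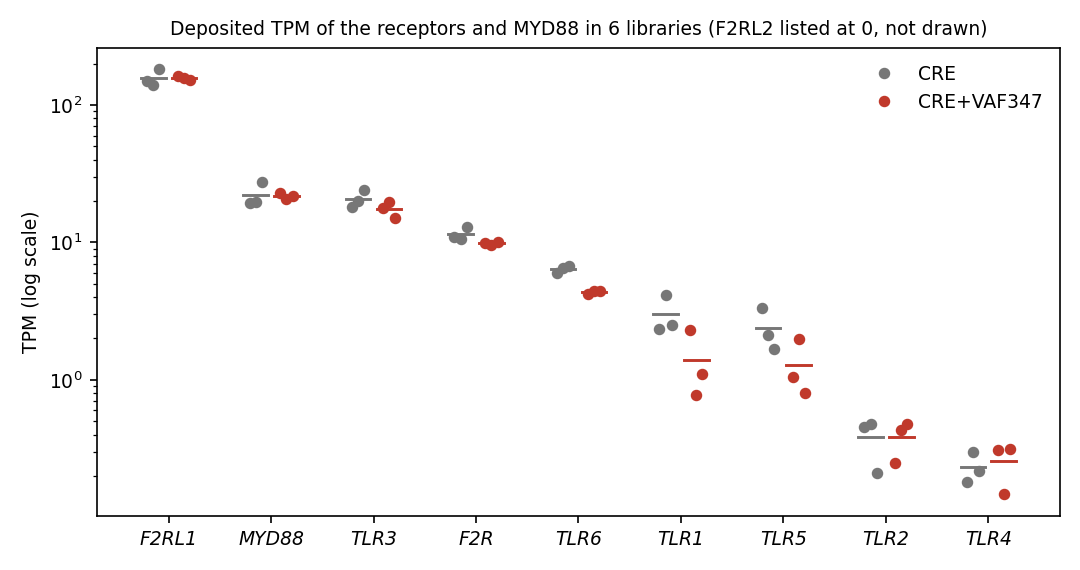
Deposited TPM (log axis) of 9 genes in each library, with CRE in grey and CRE+VAF347 in red; points are libraries and short lines are group means of 3 libraries. *F2RL1* lies near 157.5 TPM and *TLR2* and *TLR4* lie below 1 TPM, and the groups are separate for *F2R*, *TLR1* and *TLR6*.

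The counts were compared between CRE+VAF347 and CRE with edgeR's quasi-likelihood test, fitted over 15373 genes with enough counts, and a gene was called when its Benjamini-Hochberg adjusted p was under 0.05 and its absolute log2 fold change was over 0.5. The fit covered 7 of the 10 genes, while *F2RL2*, *TLR2* and *TLR4* had too few counts. *TLR6* was called lower and no member was called higher, against 1.71% of all tested genes called lower and 0.501% called higher. At any fold change *TLR6* was still the 1 gene of the 10 with an adjusted p under 0.05, against 5.42% of all tested genes (4.07% lower and 1.35% higher). The libraries of the groups did not overlap in CPM for *F2R*, *TLR1* and *TLR6*, all lower with VAF347, a pattern seen in that direction in 14.8% of all tested genes. Labels do not say whether the 3 libraries of a group came from separate cultures, so the p-values measure the spread between these libraries, which may be technical. In bulk RNA, fewer cells expressing a gene and less RNA per cell cannot be told apart.

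**Figure D2:**
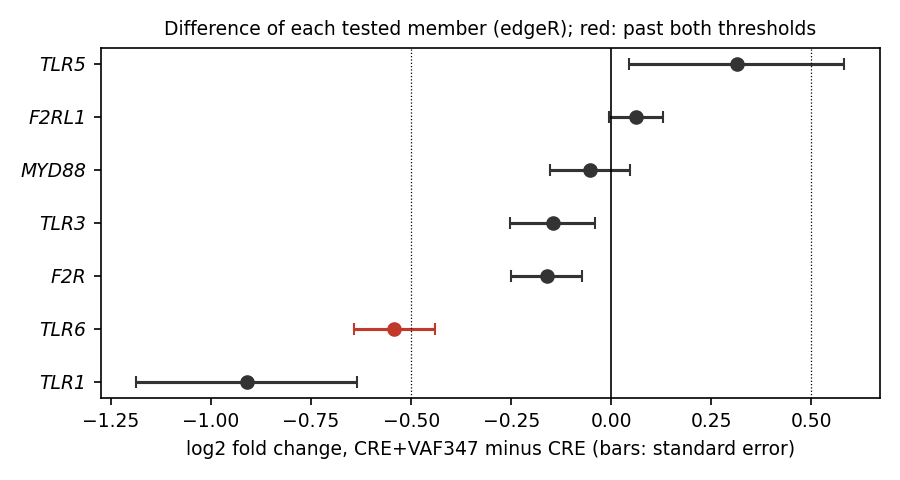
Log2 fold change (CRE+VAF347 minus CRE, horizontal axis) of the 7 tested genes from edgeR, with bars for the standard error and dotted lines at an absolute value of 0.5. *TLR6*, in red at -0.54, passed both thresholds, and *TLR1*, at -0.91, had a wider error and did not.

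*F2RL1* (chromosome 5, 76818933 to 76835315, plus strand, GRCh38) lies near *F2R* (chromosome 5, 76716126 to 76735770, plus strand) and *F2RL2* (chromosome 5, 76615482 to 76623413, minus strand). In CRE-treated cells its TPM was 150.3, 139.1 and 183.1 (replicates 1 to 3, the order kept from here on), and in the presence of VAF347 it was 163.7, 158.7 and 151.6. In TMM-normalised CPM the group means were 198.9 ± 14.3 for CRE and 207.6 ± 9.23 for CRE+VAF347 (SD, n = 3 each). The groups overlapped on both scales, and the log2 fold change was 0.06 (SE 0.068, adjusted p = 0.654 by edgeR's quasi-likelihood test with Benjamini-Hochberg adjustment). An antisense lncRNA gene overlaps *F2RL1* by 645 bp, and its deposited counts were at most 12.7, against at least 1880 for *F2RL1*.

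*F2R* had 190, 192 and 214 counts with CRE and 157, 161 and 178 with CRE+VAF347. Its CPM was 19.7, 18.8 and 20.002 with CRE and 17.6, 16.9 and 17.8 with VAF347. All 3 CRE+VAF347 libraries were thus below the lowest CRE library, but the difference was small, at -0.16 on the log2 scale (SE 0.089), and did not pass the test (adjusted p = 0.335 by edgeR's quasi-likelihood test with Benjamini-Hochberg adjustment). In each library *F2RL1* exceeded *F2R* in TPM, 13.2 to 14.2 times with CRE and 14.99 to 16.6 times with VAF347. *F2RL1* made up 76.0% to 79.1% of the summed TPM of the 9 receptors with CRE and 81.1% to 82.4% with VAF347, ranges that do not overlap. The TPM of *F2RL1* itself was level (means of 157.5 and 158.0). The TPM of *F2R* and the summed TPM of *TLR1* to *TLR6* were lower in every CRE+VAF347 library, so the share does not show a rise of *F2RL1*.

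*F2RL2* encodes PAR3, described as a cofactor for PAR activation by thrombin. It had 0 counts in all 6 libraries, which allows up to 0.279 to 0.338 CPM per library (3 counts, covering counting error only). *F2RL3*, the gene of PAR4, is no member of the set and had 0, 0 and 1 counts with CRE and 0, 2 and 0 with VAF347. Of the protease-activated receptors, *F2RL1* and *F2R* were therefore the ones measured above the limit of detection in these cells.

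*TLR6* and *TLR1* encode cell surface receptors that pair with the product of *TLR2* to bind diacylated and triacylated lipopeptides, respectively. Both lie on the minus strand of chromosome 4 and share an annotated start, with *TLR1* from 38790677 to 38856817 and *TLR6* from 38822897 to 38856817 (GRCh38, GENCODE v44). Their gene bodies overlap by 33921 bp, but by position their exons share only 57 bases of the first exon, and 0 coding bases of *TLR1* lie inside exons of *TLR6*. Their coding sequences nevertheless resemble each other, and 418 stretches of 31 bases occur in transcripts of both genes, 9.05% of those of *TLR1* and 6.10% of those of *TLR6*. The longest stretch of coding sequence that is identical in both is shown because fragments from it cannot be assigned to either gene by sequence. It is 218 bases long (capitals) and is printed with 12 bases on each side. In *TLR1* it covers coding bases 1379 to 1596 of 2358 (chr4:38797236-38797453, minus strand), and in *TLR6* coding bases 1394 to 1611 of 2388 (chr4:38827863-38828080, minus strand).
TLR1: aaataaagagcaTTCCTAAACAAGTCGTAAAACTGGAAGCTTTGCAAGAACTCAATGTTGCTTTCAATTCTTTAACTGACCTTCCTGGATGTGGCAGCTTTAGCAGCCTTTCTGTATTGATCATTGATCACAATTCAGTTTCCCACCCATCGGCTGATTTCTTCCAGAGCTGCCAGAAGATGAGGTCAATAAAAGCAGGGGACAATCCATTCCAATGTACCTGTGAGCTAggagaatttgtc
TLR6: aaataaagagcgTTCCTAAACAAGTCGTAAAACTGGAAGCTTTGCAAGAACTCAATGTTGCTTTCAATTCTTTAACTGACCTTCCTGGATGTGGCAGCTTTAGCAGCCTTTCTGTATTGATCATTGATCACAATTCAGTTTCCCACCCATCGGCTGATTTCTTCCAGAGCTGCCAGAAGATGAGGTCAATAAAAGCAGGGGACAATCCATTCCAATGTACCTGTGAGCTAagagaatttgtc

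**Figure D3:**
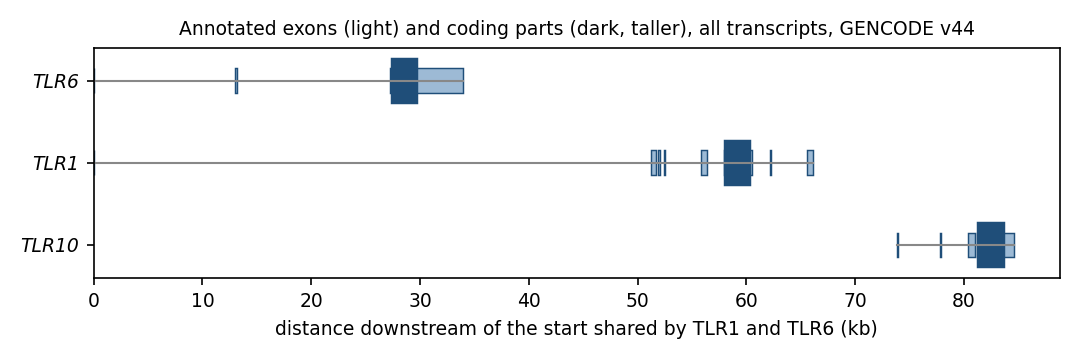
Annotated exons (light) and coding parts (dark) of *TLR6*, *TLR1* and *TLR10*, all transcripts merged, against distance in kb downstream of the start shared by *TLR1* and *TLR6*. The coding part of *TLR1* lies beyond the end of *TLR6*, and the exons of the pair meet only in the 57 bases at the shared start.

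*TLR6* had 195, 236 and 227 counts with CRE and 134, 150 and 136 with CRE+VAF347. In CPM these were 20.2, 23.2 and 21.2 with CRE and 15.1, 15.8 and 13.6 with VAF347. Every CRE+VAF347 library was below every CRE library, in CPM and in TPM (5.99, 6.48 and 6.78 against 4.21, 4.44 and 4.42). The mean fell from 21.5 ± 1.51 to 14.8 ± 1.12 CPM (SD, n = 3 each), a log2 fold change of -0.54 (SE 0.10, adjusted p = 0.0107 by edgeR's quasi-likelihood test with Benjamini-Hochberg adjustment), or 1.46-fold lower. *TLR6* ranked 916th of the tested genes by size of fold change and 327th by p, so the change was moderate among those in these cells.

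The call for *TLR6* lies close to the fold threshold. It was -0.49 without CRE replicate 2 (adjusted p = 0.0473 by edgeR's quasi-likelihood test with Benjamini-Hochberg adjustment) and -0.49 without CRE+VAF347 replicate 3 (adjusted p = 0.0646 by the same test), and *TLR6* was not called in either. By limma on log2(TPM + 1) the difference was -0.47 and did not pass the test (adjusted p = 0.262). Without CRE replicate 3, the library that stood apart, it was -0.55 (adjusted p = 0.00504 by edgeR's quasi-likelihood test with Benjamini-Hochberg adjustment). Summed over 9 genes, the leukocyte marker list, whose genes mark cells rich in Toll-like receptors, came to 22.4 to 25.6 TPM with CRE and 15.2 to 21.6 TPM with VAF347. Nearly all of that sum was *CD68*, with means of 23.2 and 17.4 TPM, and the pan-leukocyte gene *PTPRC* was near 0 (0.110 and 0.035 TPM). *ITGAM* was higher with VAF347 in TPM (0.157 and 0.477) but not in counts (3, 8 and 5 with CRE, 4, 5 and 4 with VAF347). The summed endothelial markers (9.41 to 10.4 and 6.03 to 7.46 TPM) and fibroblast and smooth muscle markers (41.6 to 43.2 and 37.7 to 40.3 TPM) were also lower with VAF347, without overlap. *PDGFRA*, *LUM* and *DCN* were at 0 in all libraries. The endothelial fall was mostly *CDH5* (7.15 and 4.12 TPM), while *KDR* (2.14 and 2.25 TPM) and *ACTA2* (22.1 and 22.1 TPM) were near level. Airway basal markers were lower too, without overlap (213.2 to 277.8 and 176.4 to 203.8 TPM). The ciliated, club and goblet list, nearly all *TUBB4B*, was higher, without overlap (685.9 to 756.4 and 759.6 to 839.0 TPM). Its ciliated genes *DNAI1* (means of 2.62 and 1.26 TPM) and *FOXJ1* (0.683 and 0.489 TPM) went the other way, with overlapping libraries. The remaining genes of that list were at or near 0. The part of any of these cell types in the *TLR6* difference was not tested.

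*TLR1* had 22, 27 and 22 counts with CRE and 12, 9 and 14 with CRE+VAF347. In CPM these were 2.28, 2.65 and 2.06 against 1.35, 0.946 and 1.397, so the groups did not overlap. The mean was 2.33 ± 0.2995 with CRE and 1.23 ± 0.247 with VAF347 (SD, n = 3 each), and the log2 fold change of -0.91 (SE 0.28) did not pass the test (adjusted p = 0.0837 by edgeR's quasi-likelihood test with Benjamini-Hochberg adjustment). *TLR1* reached 10 counts in 3 of 3 CRE libraries and in 2 of 3 CRE+VAF347 libraries, so it entered the fit through the group in which it was higher.

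The counts of *TLR1* and *TLR6* were whole numbers in 4 libraries and not whole in CRE replicates 1 and 3, where their sum was whole within 0.01. *TLR1* took 10.2%, 10.3% and 8.92% of the pair's counts with CRE and 8.22%, 5.66% and 9.33% with VAF347, and the groups overlapped in that share. *TLR10*, a near relative in the same cluster, had 0, 1 and 0 counts with CRE and 0, 3 and 0 with VAF347. With *TLR1*, *TLR6* and *TLR10* summed as 1 feature, an alternative that does not depend on how fragments were divided among them, the levels were 22.5, 25.9 and 23.3 CPM with CRE and 16.4, 17.0 and 14.97 CPM with VAF347. The sum fell by 0.57 on the log2 scale (SE 0.098, adjusted p = 0.00716 by edgeR's quasi-likelihood test with Benjamini-Hochberg adjustment).

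**Figure D4:**
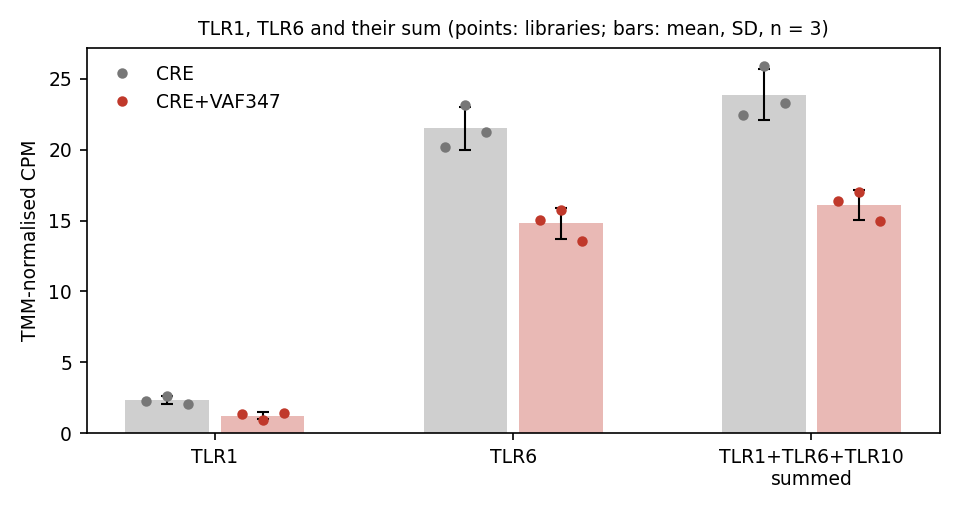
TMM-normalised CPM of *TLR1*, *TLR6* and the sum of *TLR1*, *TLR6* and *TLR10*; points are libraries, bars are means and error bars are SD of 3 libraries, with CRE in grey and CRE+VAF347 in red. The CRE+VAF347 libraries lie below the CRE libraries in all 3 panels, and the sum follows *TLR6*, which holds most of the counts.

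The 250 bases upstream of the start shared by *TLR6* and *TLR1* are shown because both genes were lower in every CRE+VAF347 library and an AhR agonist separates the groups. They lie at chr4:38856818-38857067 on the minus strand (RefSeq sequence, GRCh38.p14), have a GC content of 36.4%, and hold no copy of the core of the AhR binding motif, GCGTG, on either strand.
TLR6 upstream: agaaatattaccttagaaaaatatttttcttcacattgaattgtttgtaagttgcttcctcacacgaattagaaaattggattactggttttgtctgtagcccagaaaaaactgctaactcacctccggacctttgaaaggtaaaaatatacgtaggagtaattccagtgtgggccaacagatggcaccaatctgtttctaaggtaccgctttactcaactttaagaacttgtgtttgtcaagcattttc

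GCGTG was searched on both strands in RefSeq promoters of 300 bases, 250 before and 50 after the start, and 36.3% of 27305 promoters hold at least 1 copy. The table has an entry for 8 of the 10 genes, the exceptions being *F2R* and *TLR1*. Copies were found for *TLR5* (2 copies, at -97 and -80 from the start), *F2RL1* (1 copy, at -44) and *TLR4* (1 copy, at 18). The 3 genes with a copy of 8 are near the share of all promoters. *TLR5* and *F2RL1* were not called between the groups, and *TLR4* was not tested. A match is a description of letters in this window and not evidence of binding.

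*TLR2* (chromosome 4, 153684070 to 153706260, plus strand), the partner of both receptors, had 6, 8 and 3 counts with CRE and 3, 7 and 9 with CRE+VAF347. *TLR4* (chromosome 9, 117704175 to 117724735, plus strand), the lipopolysaccharide receptor and a receptor implicated in the sensing of house dust mite, had 3, 7 and 3 counts with CRE and 6, 3 and 11 with VAF347. A gene annotated on the same strand covers *TLR4* over 20561 bp and took at most 1.51 counts, so single counts of *TLR4* are uncertain. *TLR2* and *TLR4* had counts in all 6 libraries with overlapping groups, but *TLR2* was at 3 counts in 2 libraries, and *TLR4* was at 3 after rounding in 3, so they were not above the limit of 3 counts throughout and no fold change is given for them. *LY96*, whose product MD-2 is required by TLR4 to bind lipopolysaccharide, had 0 counts in all 6 libraries. *CD14*, which delivers ligands to TLR4 and TLR2, was present and did not pass the test, with a log2 fold change of -0.31 (adjusted p = 0.399 by edgeR's quasi-likelihood test with Benjamini-Hochberg adjustment). *LY96* and *CD14* were picked out after their values were seen.

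*TLR5* (chromosome 1, 223109404 to 223143248, minus strand), the flagellin receptor, had 15, 18 and 18 counts with CRE and 17, 25 and 17 with CRE+VAF347. The groups overlapped, and the log2 fold change from counts was 0.31 (SE 0.27, adjusted p = 0.550 by edgeR's quasi-likelihood test with Benjamini-Hochberg adjustment). Its TPM took the opposite direction, at 3.31, 2.13 and 1.67 with CRE and 1.05, 1.99 and 0.802 with VAF347. The direction of *TLR5* therefore depends on the unit. Counts per unit of TPM, which follow the transcript length that the estimate assigned, were 4.43, 7.89 and 11.003 with CRE and 17.5, 12.8 and 20.7 with VAF347 after adjustment for depth, a range of 4.68 times. For *TLR1* this range was 2.19 times, and for *TLR6* it was 1.14 times, so *TLR6* gave like differences in both units.

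*TLR3* (chromosome 4, 186068911 to 186088073, plus strand), the endosomal receptor for double-stranded RNA, was the most abundant Toll-like receptor gene in every library. Its TPM was 18.0, 19.9 and 24.0 with CRE and 18.0, 19.6 and 15.2 with CRE+VAF347. The groups overlapped, and the log2 fold change from counts was -0.15 (SE 0.11, adjusted p = 0.476 by edgeR's quasi-likelihood test with Benjamini-Hochberg adjustment). *TLR3* made up 59.4% to 67.8% of the summed TPM of *TLR1* to *TLR6* with CRE and 68.1% to 71.6% with VAF347, and these ranges did not overlap. Without *TLR5*, whose direction depends on the unit, the shares were 66.7%, 63.6% and 71.2% with CRE and 71.7%, 77.2% and 70.6% with VAF347, and the groups overlapped. The summed TPM of *TLR1* to *TLR6* itself was 30.3, 33.4 and 35.3 with CRE and 26.1, 27.4 and 22.3 with VAF347, lower in all 3 CRE+VAF347 libraries. Of the other receptors of nucleic acids, *TLR8* and *TLR9* had 0 counts in all libraries. *TLR7* had 4, 3 and 6 counts with CRE and 1, 0 and 1 with VAF347, which is too few to test.

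*MYD88* (chromosome 3, 38138552 to 38143024, plus strand) couples Toll-like receptors other than TLR3 to the IRAK kinases. Its CPM was 34.99, 34.8 and 43.6 with CRE and 39.3, 34.7 and 35.6 with CRE+VAF347. CRE replicate 3 was the highest of the 6 libraries and CRE+VAF347 replicate 1 was next, with the other 4 between 34.7 and 35.6. The log2 fold change was -0.05 (SE 0.10, adjusted p = 0.805 by edgeR's quasi-likelihood test with Benjamini-Hochberg adjustment), and without CRE replicate 3 it was 0.064.

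The genes that act before and after these receptors were taken from lists by role, and 123 of the 178 listed genes in the table were tested. Of these, 8 were called lower and 1 higher, which is 7.32% against 2.21% of all tested genes, and the median log2 fold change was -0.06 against 0.0096 over all genes. These shares describe the lists, which were chosen with earlier results of these data known, and are no test of them. Lists of G proteins, phospholipases and arrestins (22 tested), protease inhibitors (7 tested), co-receptors and chaperones of Toll-like receptors (6 tested), and negative regulators of Toll-like receptor signalling (17 tested) held no called gene. Their most abundant members, *RHOA*, *SPINT2*, *HSP90B1* and *TAX1BP1*, differed by 0.09, -0.05, -0.08 and 0.11 on the log2 scale, and none passed the test. With an adjusted p under 0.05 but a smaller fold, 1 gene in each of these lists changed: *ARRB1*, an arrestin, rose by 0.43, and *TFPI2*, a protease inhibitor, *UNC93B1*, a chaperone of endosomal Toll-like receptors, and *TNFAIP3*, an inhibitor of NF-kappaB, fell by 0.47, 0.37 and 0.33 on the log2 scale. These 4 genes were named after their values were seen. By DESeq2's Wald test 7 of the 9 called genes were also called, and by limma on log2(TPM + 1) 2 of the 9 were.

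**Figure D5:**
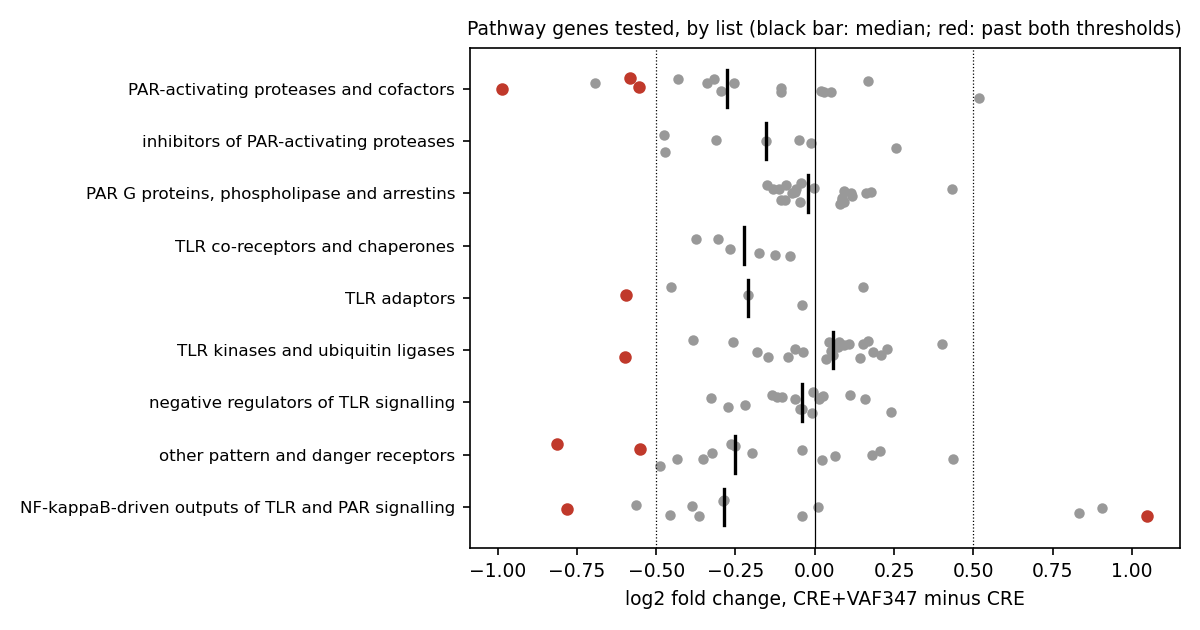
Log2 fold change (CRE+VAF347 minus CRE, horizontal axis) of each tested pathway gene by list; points are genes, black bars are list medians, dotted lines mark an absolute value of 0.5, and red points passed both thresholds. Of the 9 red points 8 lie to the left, 3 of them in the list of proteases, and the 1 to the right is *IL6*.

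The list of proteases that may activate protease-activated receptors, with their cofactors, had 16 of 33 genes tested. Of these, 3 were called lower and 0 higher, with a median log2 fold change of -0.28. Not every gene in the list is an established activator of these receptors, and receptor cleavage was not measured. *KLK6*, a trypsin-like kallikrein, fell from 348.6 ± 23.9 to 237.9 ± 8.45 TPM (SD, n = 3 each), with a log2 fold change of -0.55 from counts (SE 0.063, adjusted p = 0.000639 by edgeR's quasi-likelihood test with Benjamini-Hochberg adjustment). *KLK10*, another kallikrein, fell from 39.5 ± 8.14 to 24.5 ± 3.33 TPM, with a log2 fold change of -0.58. *TMPRSS4*, a membrane-bound serine protease, fell from 4.44 ± 0.471 to 2.42 ± 0.610 TPM, with a log2 fold change of -0.99. The *TMPRSS4* call was lost without CRE+VAF347 replicate 2 or 3 (-0.94 and -0.97, adjusted p = 0.0688 and 0.0668 by edgeR's quasi-likelihood test with Benjamini-Hochberg adjustment), while *KLK6* and *KLK10* were called without any 1 library. *PLAU* (urokinase), the most abundant of the list by the mean over all 6 libraries, was 309.1 ± 41.8 TPM with CRE and 339.8 ± 3.46 TPM with VAF347 and did not pass the test. The genes of thrombin (*F2*), trypsins (*PRSS1*, *PRSS2*), plasminogen (*PLG*) and the neutrophil proteases *ELANE* and *CTSG* were at 0 in all 6 libraries.

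The list of adaptors of Toll-like receptors had 5 of 7 genes tested and 1 called. *PIK3AP1*, which links the receptors to phosphoinositide 3-kinase, fell by 0.60 on the log2 scale (SE 0.13, adjusted p = 0.0260 by edgeR's quasi-likelihood test with Benjamini-Hochberg adjustment). It was not called by DESeq2 (adjusted p = 0.0508) or without CRE replicate 2, CRE+VAF347 replicate 1 or CRE+VAF347 replicate 3, with log2 fold changes of -0.51, -0.55 and -0.53. *TICAM1*, the adaptor of TLR3 and named here after its value was seen, had a log2 fold change of -0.45 and did not pass the test (adjusted p = 0.0910 by edgeR's quasi-likelihood test with Benjamini-Hochberg adjustment). *BCAP31*, the most abundant gene placed in the list, differed by 0.15. It is not an established adaptor of Toll-like receptors, so its level is not that of an adaptor. Of the kinases and ubiquitin ligases, 23 of 24 were tested and 1 was called, with a list median of 0.06. *UBE2V1*, the most abundant of that list, differed by 0.08 and did not pass the test. *IKBKE*, a kinase upstream of interferon regulatory factors, fell from 22.8 ± 3.66 to 15.9 ± 1.25 TPM, with a log2 fold change of -0.60, and was called without any 1 library.

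Other pattern and danger receptors had 15 of 21 genes tested, 2 called lower and 0 higher, with a median log2 fold change of -0.25. *IFIH1* encodes MDA5, a cytosolic sensor of double-stranded RNA, and fell from 41.8 ± 7.13 to 29.7 ± 4.62 TPM, with a log2 fold change of -0.55. Without CRE replicate 3 *IFIH1* missed only the fold threshold (-0.48, adjusted p = 0.00284 by edgeR's quasi-likelihood test with Benjamini-Hochberg adjustment). Without CRE+VAF347 replicate 3 it missed both thresholds (-0.47, adjusted p = 0.0548 by the same test). *CLEC7A*, the beta-glucan receptor Dectin-1, was lower by the test (log2 fold change -0.81, adjusted p = 0.0475 by edgeR's quasi-likelihood test with Benjamini-Hochberg adjustment), and was called without CRE replicate 3 only. Leaving out any other library gave -0.98 to -0.66 with adjusted p = 0.0717 to 0.184 by the same edgeR test. In TPM *CLEC7A* was 6.83 ± 1.04 with CRE and 6.47 ± 3.81 with VAF347, a difference smaller than the spread between libraries. *RIGI*, the most abundant gene of the list, differed by -0.32 and did not pass the test.

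Transcripts commonly driven by NF-kappaB had 12 of 20 genes tested, with 1 called lower and 1 higher. *ICAM1*, an adhesion molecule for leukocytes, fell from 29.1 ± 6.09 to 17.1 ± 3.4004 TPM, with a log2 fold change of -0.78. *IL6* rose from 16.3 ± 0.779 to 29.4 ± 2.95 TPM, with a log2 fold change of 1.05. Both were called without any 1 library. *NFKBIA*, the NF-kappaB inhibitor and the most abundant gene of the list, fell by 0.29 on the log2 scale, short of the fold threshold (adjusted p = 0.0111 by edgeR's quasi-likelihood test with Benjamini-Hochberg adjustment). At any fold, 4 genes of the list had an adjusted p under 0.05 and were lower, and 1 was higher, and its median log2 fold change was -0.29.

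Over the 6 libraries, the genes whose log2 CPM followed *TLR6* most closely were *IFIT1* (Pearson r = 0.998), *ABCA4* (r = 0.997) and *NOCT* (r = 0.993). They were picked as the highest of all tested genes, and the 6 points share the division into groups and the libraries themselves. Their log2 fold changes were -0.66, -1.39 and -0.66, so each was lower with VAF347 as *TLR6* was. *IFIT1* is an interferon-induced gene, *ABCA4* encodes a lipid transporter, and *NOCT* encodes nocturnin.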

How the data were processed

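RNA-seq of 6 libraries (3 CRE, 3 CRE+VAF347) was analysed, with conditions and replicates taken from the labels and 0 columns of per-sample values left unmatched. Poly(A)-selected RNA was sequenced by the authors as paired reads of 150 bases. The submitters' processing notes name Salmon and hg38, and the Salmon version, the annotation and the use of strand are not given in the sources used here. The deposited expected counts are estimated fragments per gene, not scaled to depth, and 14.5% of values were not whole. The deposited TPM values sum to 1000000 in each library. Another deposited table holds the authors' own log2 fold changes and p-values and was not used. All 61228 gene names were found in GENCODE v44 (GRCh38), the source of positions and coding sequences. Upstream and promoter sequences are from RefSeq (GRCh38.p14).

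Rounded counts went through edgeR 4.0.16 in R 4.3.3, with low counts removed by filterByExpr, TMM scaling and the quasi-likelihood test, adjusted by Benjamini-Hochberg over all 15373 genes tested. Standard errors were derived from each fold change and the square root of its F. With 3 libraries against 3, an exact permutation test cannot give a two-sided p under 0.1, and genes were judged by the model across all genes. Depth limits and floors (3 counts) cover counting error only. The 10 genes and the lists were chosen with earlier results of these data known. Genes named are all 10 members, every called gene and the most abundant gene of each list, 3 AhR targets, and the 3 genes with the highest correlation with a called member. Beyond that rule, genes at or near 0 counts and marker genes are named from the same lists, after their values were seen, and others are marked where they stand. The edgeR test, with and without the block, DESeq2 and limma were first tested on simulated data holding known changes.

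Alternatives were DESeq2 1.42.0 (size factors, Wald test), limma 3.58.1 on log2(TPM + 1) and log2(TPM + 0.1) for genes with a mean of at least 1 TPM and without that filter, other count filters, other thresholds, glmTreat, a GC offset, a replicate block, the summed *TLR1* cluster and leaving out each library. Counts of calls under the GC offset and with the summed cluster, the share of *TLR1*, and the share of *TLR3* without *TLR5* were added after the data were seen.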

Additional observations from a re-analysis of the deposited data

How the results depend on the processing

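Of 106 alternative fits of the 7 tested genes' fold changes, 96 kept the direction and the side of the threshold. Most were of genes not called in the main fit, for which staying uncalled counted as kept. The summed cluster was counted for both *TLR1* and *TLR6*. For *TLR6*, the 1 member called, 11 of 16 fits kept the call and 5 lost it. *TLR6* ranged from -0.62 to -0.47 and was lower in all of them. It was called with DESeq2 (adjusted p = 0.0320) and with a GC offset (-0.62, adjusted p = 0.00724 by edgeR), and not by limma on log2(TPM + 0.1), on log2(TPM + 1) or on log2(TPM + 1) without a filter (adjusted p = 0.244, 0.262 and 0.482), in which the number of the 10 genes called, with or without the fold threshold, was 0. None was called by glmTreat against a log2 fold change of 0.5 (0), and 2 (*TLR6* and *TLR1*) were called at an unadjusted p under 0.05. Leaving out 1 library gave 0 to 1 called, with 0 without CRE replicate 2 and without CRE+VAF347 replicate 3, and 0 to 1 at any fold, with 0 without CRE+VAF347 replicate 3. The direction reversed for *TLR5* in the 3 limma fits (-0.88, -0.57 and -0.57) and for *MYD88* without CRE replicate 3 (0.064, against -0.12 to 0.064 over the libraries left out in turn). *TLR1* was called at an unadjusted p only. The summed cluster was called at an adjusted p (-0.57), but *TLR6* holds most of its counts, so that call says little of *TLR1*. DESeq2 gave *TLR1* and *TLR5* no adjusted p.

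Called pathway genes numbered 9 in the edgeR test, 2, 2 and 0 in the 3 limma fits, 0 by glmTreat, and 5 to 11 when 1 library was left out, with 5 without CRE+VAF347 replicate 3. Over all genes, 340 were called by edgeR (263 lower, 77 higher), 84 (52 lower, 32 higher), 84 (50 and 34) and 32 (12 and 20) by limma, 598 (411 and 187) with no filter on low counts, 47 (21 and 26) by glmTreat, 749 (502 and 247) at an unadjusted p, and 201 to 380 when 1 library was left out. The cause of these differences was not tested. With the replicate number as a block, 1 member was called, *TLR6* at -0.54 (adjusted p = 0.0182 by edgeR), and *TLR1* had an adjusted p of 0.130. The *CLEC7A* call was lost in that fit (adjusted p = 0.0710). Same-numbered libraries of the groups deviated together only weakly. Their correlations of deviations from the group means were 0.053, 0.033 and 0.015, against -0.042 to 0.010 for other pairs. Each was the highest for its libraries, but all are small, so whether the numbers pair the libraries cannot be told from them. Depth limits *F2RL2*, *TLR2* and *TLR4*, for which no difference was detectable here, and makes the error of *TLR1* and *TLR5* wide.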
